A study of Homo sapiens with 8 samples.

Results

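SK-MES-1 is a human cell line that the labels describe as lung squamous cell carcinoma. Its expression before any transfection was compared here with that of 4 other human cancer lines, PC3 (labelled prostate cancer), SW1990 and PANC1 (both labelled pancreatic cancer) and MDA-MB-231 (labelled breast cancer). RNA of mock cells, which by the labels received no transfection, was labelled with Cy3 on every array, and SK-MES-1 took up 2 of the 8 arrays. PC3 and PANC1 had 2 mock arrays each, and SW1990 and MDA-MB-231 had 1 each. The Cy5 channel of the same arrays held cells of the same line after transfection, with miR-144-5p or miR-144-3p in SK-MES-1, si-PIR-2 or si-PIR-3 in PC3, miR-130-5p or miR-130-3p in PANC1, and miR-204-5p in SW1990 and MDA-MB-231. It was used in the last comparison and as an alternative to Cy3. All cells were grown in RPMI 1640 or DMEM without a record of which line had which medium, so line and medium cannot be told apart. Nothing in the labels says that the 2 mock arrays of a line came from separate cultures, and the spread between them may be technical.

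Squamous carcinomas show features of stratified epithelium. Their usual markers are the transcription factors p63 and SOX2, the basal keratins, and the desmosomal cadherins that hold stratified cells together. Lung squamous tumours also often carry an active NRF2 pathway, in which the transcription factor NRF2, freed from its inhibitor KEAP1, switches on genes that make glutathione and NADPH and detoxify reactive compounds. Cancer-testis antigens, a further group often seen in lung cancer, are genes whose activity in healthy adults is largely limited to germ cells and whose promoters are usually silenced by DNA methylation elsewhere.

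A level is the Cy3 net intensity of a probe on the log2 scale after quantile normalization over the 8 arrays, where 0 is the lowest value a probe can have. Levels of different probes were not compared. The array carried 43317 gene names, and 19980 of them were kept because at least 1 of their probes was well above background on both SK-MES-1 arrays or on all 6 others. A gene was said to stand apart when the SK-MES-1 mean lay above, or below, every other line mean by at least 1 on the log2 scale and both SK-MES-1 arrays lay beyond all 6 others. Among the 19980 genes, 1266 (6.34%) stood apart higher in SK-MES-1 and 496 (2.48%) lower. Without the filter on dim probes, 3.69% of all 43317 names stood apart higher and 1.94% lower, and the list counts below are read against these shares. Both SK-MES-1 arrays lay above all 6 others for 20.6% of the filtered genes and below all 6 for 19.3%. Arrays of the same line were close to each other. The difference between 2 arrays had an SD over probes of 0.221 for the SK-MES-1 pair, against 1.56 to 1.66 for an SK-MES-1 array and an array of another line.

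With the line as the unit, limma set 1 line against 4 and called 169 genes higher (0.846%) and 7 lower (0.035%) in SK-MES-1 at an adjusted p under 0.05. Of the 169 genes called higher, 161 had no other array above background, and for 132 every other line was at 1 or less, close to the floor that all lines share. No gene was called when any other line was left out, or with a variance that followed intensity and a robust fit, and no gene was called when a probe had to be above background on all 8 arrays. At an unadjusted p under 0.05 these settings gave 1120 to 1989 genes. In each setting the SK-MES-1 line was assumed to vary like the others, and an exact permutation over 5 lines could not have gone below a p of 0.2. The same fit called 19 to 103 genes higher and 12 to 34 lower when each other line was set against the remaining 4. In the text below, a difference is the SK-MES-1 mean minus the mean of the 4 other lines, given with the SE of that fit, and adjusted p-values are from limma with Benjamini-Hochberg adjustment over the 19980 genes. Folds given as "at least" are also against the mean of the 4 other lines, and the nearest line can be closer. They raise dim values to the lowest signal well above background on each array, such as 1.69 for MDA-MB-231. A probe can exceed that signal and still not be well above background, as SOX2 did at 3.11 in MDA-MB-231. The folds are bounds under that rule only, and true folds may be smaller. Values with the line as a random block come from a fit to all 8 arrays. Arrays of a line, which may be technical repeats, enter that fit as separate values, so a call gained there is no added support.

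The squamous markers were only partly present in SK-MES-1. Of 12 markers, TP63, SOX2, KRT14, KRT17 and PKP1 were well above background on both SK-MES-1 arrays, and the other 7 (KRT5, KRT6A, KRT6B, DSG3, DSC3, TRIM29 and CLCA2) on neither. Of all 43317 names on the array, 22075 were above background on neither SK-MES-1 array, a share not far from that of the 12 markers. TP63, which encodes p63, the master regulator of stratified epithelium, was at 3.24 and 3.62 on the SK-MES-1 arrays, at 2.20 in SW1990, and between 0.00 and 0.42 on the other 5 arrays. Only SK-MES-1 had TP63 above background, at least 3.52-fold higher than the mean of the 4 other lines (adjusted p = 0.520). SW1990, the nearest line, lay only 1.23 below it on the log2 scale. SOX2, a transcription factor gene amplified in many lung squamous tumours, was at 4.56 and 4.48 in SK-MES-1. It was at 3.11 in MDA-MB-231, 2.83 in SW1990, 2.36 and 2.08 in PANC1, and 0.00 and 0.01 in PC3, so the groups did not overlap (difference 2.48 ± 1.29, adjusted p = 0.688). Both genes stood apart, and both did so from a low level that no longer stood apart after normexp background correction or with a floor of 16.

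The keratins and cadherins of basal squamous cells did not mark SK-MES-1 among these lines. KRT5, the type II keratin of basal cells, was at 0.03 and 0.02 in SK-MES-1 and above background only in SW1990, at 4.68. KRT6A was at 0.03 and 0.996 in SK-MES-1 and at 9.94 in SW1990. Its close copies KRT6B and KRT6C, whose probes may share signal with it, were also above background only in SW1990. KRT14, the partner of KRT5, was at 4.30 and 3.99 in SK-MES-1 against 8.78 in SW1990, 2.66 in MDA-MB-231 and 0.21 or less in PC3 and PANC1. KRT17 was at 4.29 and 4.15 in SK-MES-1, again below the 8.25 of SW1990. SW1990, which is labelled pancreatic cancer, held the highest level of each of these keratins. Of 12 basal and stratified keratins none stood apart higher. DSG3, the desmosomal cadherin of basal layers, was above background on none of the 8 arrays, and DSC3 was above background only in PC3, at 6.13 and 6.20. PKP1, a plakophilin of stratified epithelium, was at 4.97 and 5.04 in SK-MES-1 and at 7.85 and 7.89 in PC3.

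**Figure D1:**
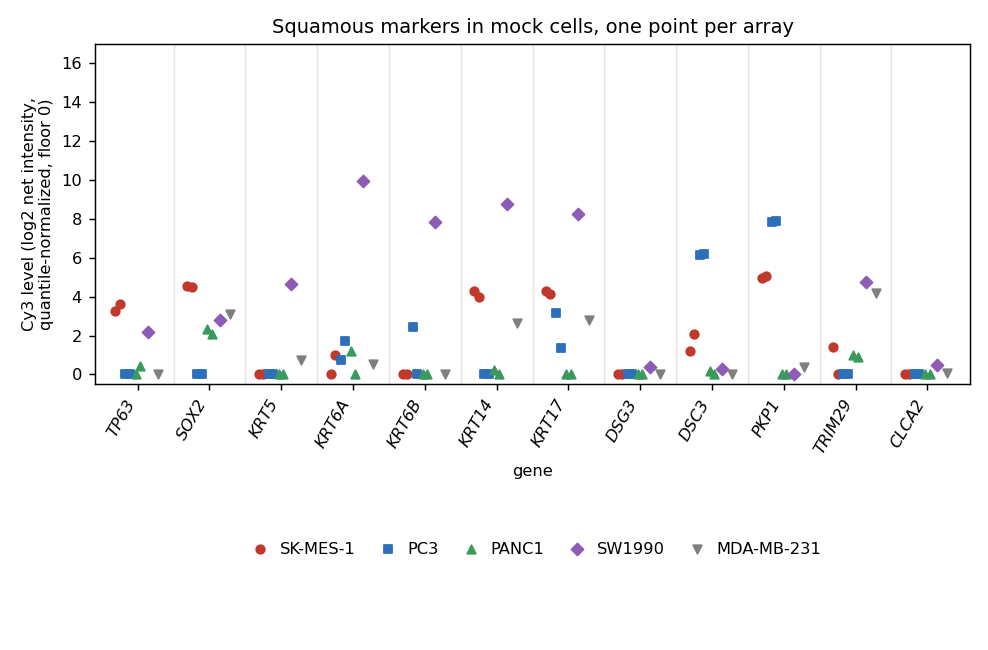
Levels of 12 squamous markers in mock cells on the 8 arrays, with 1 point per array and the Cy3 level on the log2 scale on the y axis. SK-MES-1 lies highest for TP63 and SOX2 only, both under 5, while SW1990 holds the highest point for KRT5, KRT6A, KRT6B, KRT14 and KRT17, and PC3 for DSC3 and PKP1.

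The same mixture was seen in the wider lists of the squamous programme. Of 17 squamous transcription factors, 10 were above background on neither SK-MES-1 array, which is near the share over all names, 22075 of 43317. Among the 10 were GRHL2, GRHL3, OVOL1 and ZNF750, which drive or maintain epithelial differentiation. None but TP63 and SOX2 stood apart higher. PITX1, which was bright in every line, was at 9.76 and 9.73 in SK-MES-1 against line means of 9.41 to 10.70. Of 21 cornified envelope genes, 14 were above background on neither SK-MES-1 array, against the same 22075 of 43317 names. They included IVL, LOR and SPRR3, building blocks of the envelope of terminally differentiated cells. CSTA, a cysteine protease inhibitor of that envelope, stood apart at 6.89 and 6.85, against 3.75 and 3.52 in PANC1, 3.04 in SW1990, and 0.08 or less in PC3 and MDA-MB-231 (difference 5.18 ± 1.73, adjusted p = 0.498). S100A2, a calcium-binding protein of basal keratinocytes, was at 12.62 and 12.58, with PC3 next at 11.27 and 11.30 and PANC1 lowest at 6.86 and 6.61 (difference 2.76 ± 1.89, adjusted p = 0.747).

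Genes that anchor epithelial cells to the basement membrane were mostly active in SK-MES-1, as they were in the other lines. Of 12 hemidesmosome and basement membrane adhesion genes, 11 were above background on both arrays and COL17A1 on neither. Of all 43317 names, 19717 were above background on both SK-MES-1 arrays. All of the 11 but LAMA3 were also above background on all 6 other arrays, so their activity does not mark SK-MES-1. COL7A1, which encodes the collagen of anchoring fibrils, had the widest gap in this list, at 10.07 and 10.15 in SK-MES-1 against 6.89 in SW1990, 6.69 and 6.74 in PANC1, 6.41 in MDA-MB-231 and 3.52 and 3.91 in PC3 (difference 4.18 ± 1.36, adjusted p = 0.484). ITGA3, the alpha chain of a laminin receptor, was at 10.98 and 10.97, about 1 above the 3 lines at 9.77 to 9.82 and further above PANC1 (difference 1.46 ± 0.60, adjusted p = 0.593). LAMB3, a laminin chain, was at 13.01 and 13.02 in SK-MES-1 and at 12.72 and 12.91 in SW1990 and MDA-MB-231, a difference too small for it to stand apart.

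Desmosomal genes went both ways. DSG2, the desmoglein found in most epithelia, was at 7.28 and 7.26 in SK-MES-1 and at 3.81 to 6.26 on the other arrays (difference 1.83 ± 1.01, adjusted p = 0.699). DSP, which encodes desmoplakin, the link from desmosomes to keratin filaments, was at 5.24 and 4.95 in SK-MES-1 against 8.33 to 10.39 elsewhere, a difference of -4.28 ± 0.93 (adjusted p = 0.249). Both stood apart, and of the 12 desmosome genes no other did. The 4 genes DSG1, DSG3, DSC1 and DSC3, were above background on neither SK-MES-1 array.

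SK-MES-1 carried simple-epithelial and mesenchymal genes together, and the balance differed from gene to gene. KRT7, KRT18 and KRT19, keratins of single-layered epithelia, were well above background on all 8 arrays, and none stood apart. EPCAM, an adhesion molecule of carcinoma cells, was at 8.21 and 8.14, within the 7.02 to 12.05 of the other lines. CDH1, which encodes E-cadherin, was above background on neither SK-MES-1 array, at 0.53 and 0.46. SW1990 had CDH1 at 10.01, PC3 at 5.48 and 5.49 and MDA-MB-231 at 3.46, whereas PANC1, at 1.70 and 1.83, was also not well above background. CLDN7, a tight-junction claudin, stood apart lower at 3.09 and 3.43 against 5.11 to 8.90 elsewhere (difference -4.29 ± 1.51, adjusted p = 0.520). Over all 16 simple epithelial genes the median difference was -1.21, against -0.133 over all 43317 names. VIM, the intermediate filament of mesenchymal cells, was high in every line, at 14.35 and 14.39 in SK-MES-1 and from 13.51 to 14.71 elsewhere (difference 0.17 ± 0.58). TWIST2, a transcription factor of mesenchymal cells, was the only one of 16 mesenchymal genes to stand apart, at 9.23 and 9.27 against 6.45 and 6.44 in PC3, 5.54 and 5.67 in PANC1 and 0.02 or less in SW1990 and MDA-MB-231 (difference 6.23 ± 3.11, adjusted p = 0.677), with a second probe at a difference of 2.92. The median difference over these 16 genes was 0.54.

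Many NRF2 target genes were higher in SK-MES-1 than in any other line. Of 20 listed genes 19 were on the array under their listed names, AKR1C2 being the exception, and 7 of the 19 (36.8%) stood apart higher, against 3.69% of all names without a filter. None stood apart lower, and the median difference over the 19 was 1.89. GPX2 failed the filter on dim probes. Of the 18 that passed, 4 did so through SK-MES-1 alone, namely AKR1C1, AKR1C3, AKR1B10 and ABCC2. Both SK-MES-1 arrays lay above all 6 others for 13 of the 19 genes, with the 20.6% above as the share among all filtered genes. No NRF2 target was called by limma, and the SE of the 7 that stood apart ran from 0.81 to 2.96.

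The NRF2 targets with the widest gaps were aldo-keto reductases, enzymes that reduce aldehydes and ketones with NADPH. AKR1C1 was at 13.23 and 13.21 in SK-MES-1, 6.91 in SW1990, 5.42 and 5.50 in PC3, 3.65 in MDA-MB-231 and 1.96 and 1.24 in PANC1 (difference 8.82 ± 2.06, adjusted p = 0.287). AKR1B10 was at 11.51 on both SK-MES-1 arrays, 4.82 and 4.92 in PC3, 3.92 in SW1990, 2.29 in MDA-MB-231 and 1.51 and 1.70 in PANC1 (difference 8.33 ± 1.36, adjusted p = 0.127). AKR1B10 was called under 4 alternatives, with adjusted p-values from 0.00901 with a floor of 16 to 0.0485 with the processed signal. These calls add no support, because AKR1B10 passed the filter through SK-MES-1 alone. A floor of 16 also draws the low levels of the other lines together, which lowers their spread. AKR1C3 was at 13.40 and 13.33 in SK-MES-1, with SW1990 next at 9.39 and PANC1 lowest at 2.31 and 2.08 (difference 6.24 ± 2.96, adjusted p = 0.656). For each of these genes the 2 SK-MES-1 arrays were within 0.1 of each other and PANC1 was the lowest line. The AKR1C genes are near-identical in sequence, and their probes may share signal. The 3 kept probes of AKR1C1 gave differences of 7.10 to 8.82.

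Glutathione and NADPH genes of the NRF2 list lay higher as well. SLC7A11, the cystine importer that feeds glutathione synthesis, was at 13.41 and 13.36 in SK-MES-1 against 10.16 and 10.17 in PANC1, 8.72 and 8.62 in PC3, 8.35 in SW1990 and 7.89 in MDA-MB-231 (difference 4.62 ± 0.93, adjusted p = 0.215, and 0.0477 with the line as a random block). GCLC, the catalytic subunit of the rate-limiting enzyme of that synthesis, was at 11.53 and 11.46 against 7.87 to 10.02 elsewhere (difference 2.74 ± 0.85, adjusted p = 0.451). Its modifier subunit GCLM was at 10.73 and 10.89 and exceeded PC3, the nearest line, by 0.13 only. TKT, TALDO1 and PGD of the NADPH-linked pentose phosphate pathway had smaller differences of 1.32, 1.09 and 0.85, with both SK-MES-1 arrays above all 6 others for each. NQO1, a quinone reductase often used as a readout of NRF2, was at 9.30 and 9.37 against 7.32 on both PANC1 arrays, 6.92 in SW1990, 5.90 and 5.80 in PC3 and 5.57 in MDA-MB-231 (difference 2.92 ± 0.81, adjusted p = 0.392).

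Not every NRF2 target put SK-MES-1 first. HMOX1, which encodes the haem-degrading enzyme haem oxygenase-1, was at 9.90 and 9.93 in SK-MES-1 but at 13.16 and 14.05 in PANC1. SRXN1, a reductase of oxidized peroxiredoxins, was at 11.51 and 11.55 against 12.01 and 11.92 in PANC1. PIR, the pirin gene of the study and itself an NRF2 target, was at 11.09 and 11.03 in SK-MES-1. It was higher in PANC1, at 12.32 and 12.31, and lower in PC3, at 10.63 and 10.70, SW1990, at 9.75, and MDA-MB-231, at 7.78 (difference 0.94 ± 1.71, adjusted p = 0.898). PANC1 was the highest line for each of the 3. Without the PANC1 line, 12 NRF2 targets stood apart higher in SK-MES-1 in place of 7, and with a probe required above background on all 8 arrays 4 did. KEAP1, the inhibitor of NRF2, was at 9.40 and 9.37 in SK-MES-1 and at line means of 9.12 to 9.55 elsewhere (difference 0.08 ± 0.37). The probe of NFE2L2, the gene of NRF2, chosen after its values were seen, was above background on none of the 8 arrays, so that its level was not measured.

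**Figure D2:**
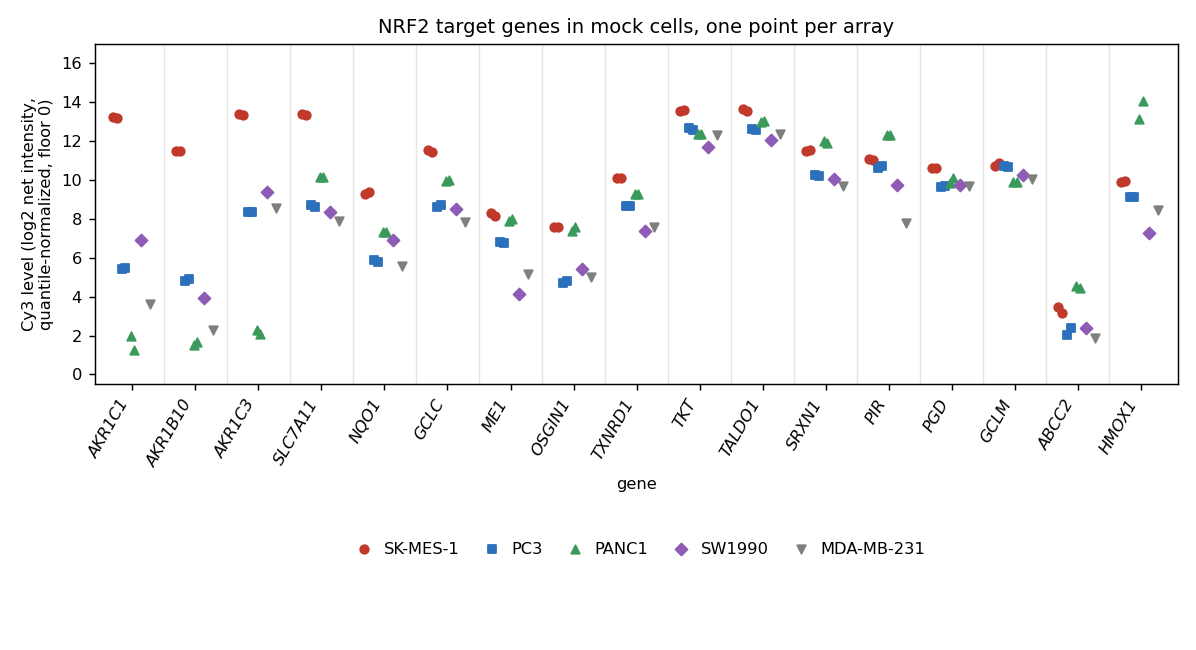
Levels of 17 of the 18 NRF2 target genes kept after the filter on dim probes, ordered by the difference between SK-MES-1 and the mean of the other lines, with 1 point per array and the Cy3 level on the log2 scale on the y axis. SK-MES-1 lies clearly above all other arrays for the first 6 genes, from AKR1C1 to GCLC, whereas PANC1 is highest for SRXN1, PIR, ABCC2 and HMOX1.

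NRF2 acts through the antioxidant response element, whose core can be written TGACNNNGC. Promoter windows from 250 bases before to 50 after the start of transcription (RefSeq, GRCh38.p14) were found for 16 of the 20 NRF2 targets, and the core, searched on both strands, was in 7 of their 18 windows, against 13.3% of all 35116 windows in the table. The windows of NQO1, GCLC, AKR1C1 and AKR1C3, the genes standing apart for which there was a window, held no match to these letters. A match from each of 4 genes of this list, of which TXNRD1 and ME1 have more, is shown to let the core be compared between members, with the core in capitals and each read along the strand of its gene. TXNRD1 is at chr12:104215668-104215700, GCLM at chr1:93909444-93909476, ME1 at chr6:83431168-83431200 and PIR at chrX:15493287-15493319.
TXNRD1: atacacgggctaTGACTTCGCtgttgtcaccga
GCLM: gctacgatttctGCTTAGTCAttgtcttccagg
ME1: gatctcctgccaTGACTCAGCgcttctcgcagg
PIR: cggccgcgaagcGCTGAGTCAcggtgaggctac
TXNRD1 and ME1 carry the core on the strand of the gene, GCLM and PIR on the opposite strand. TXNRD1, which encodes thioredoxin reductase, was at 10.12 and 10.11 in SK-MES-1 against 7.36 to 9.30 elsewhere (difference 1.89 ± 0.87, adjusted p = 0.648). ME1, an NADPH-producing malic enzyme, was at 8.32 and 8.16, with PANC1 close to it at 7.88 and 7.97 (difference 2.24 ± 1.53, adjusted p = 0.747). A match describes the letters of the window and says nothing of binding, which was not measured.

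A set of cancer-testis antigens on the X chromosome was far higher in SK-MES-1 than in the other lines. Of 25 listed genes, 20 were on the array under their listed names. Of these 20, 10 passed the filter on dim probes, 6 of them through SK-MES-1 alone. The other 10 were above background on neither SK-MES-1 array, as were 22075 of all 43317 names. Among the 10 that passed, 7 stood apart higher, and without the filter 8 of 20 (40%) did, against 3.69% of all names, the eighth being MAGEA10, which was below background on every array. The antigens were on as a subset, since GAGE1, PAGE1, SSX1 and CT45A1 were at 0.03 or less on both SK-MES-1 arrays.

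The MAGE-A genes, which encode regulators of ubiquitin ligases, made up most of that subset. MAGEA1 (probe at chrX:152481710-152481769, hg19) was at 9.47 and 9.39 in SK-MES-1, 2.02 in MDA-MB-231, 0.42 and 1.69 in PANC1, and 0.01 or less in PC3 and SW1990. It was above background in no other line, so that it was at least 223-fold higher in SK-MES-1 (adjusted p = 0.0413). MAGEA8 was at 5.72 and 5.59 in SK-MES-1 and at 0.01 or less on every other array, at least 17.2-fold higher (adjusted p = 0.009914). MAGEA1 and MAGEA8 passed the filter through SK-MES-1 alone, and their p-values rest on other lines at or near the floor. These p-values therefore add no support to the levels. MAGEA4 was at 7.84 and 7.88 in SK-MES-1 and at 2.99 in MDA-MB-231, the nearest line (difference 6.54 ± 1.26, adjusted p = 0.191, and 0.0396 with the line as a random block). MDA-MB-231 was also next in order for MAGEA6 and MAGEA12. MAGEA6 was at 13.17 on both SK-MES-1 arrays, 7.07 in MDA-MB-231, 3.82 and 4.52 in PC3, 2.69 and 2.58 in PANC1 and 0.00 in SW1990 (difference 9.70 ± 2.64, adjusted p = 0.382). MAGEA12 was at 11.10 on both SK-MES-1 arrays and at 5.30 in MDA-MB-231 (difference 8.31 ± 1.60, adjusted p = 0.191). The MAGEA2, MAGEA3, MAGEA6 and MAGEA12 transcripts are near-identical over long stretches, so that a probe of one may report others, and the 2 probes of MAGEA6 gave differences of 6.28 and 9.70.

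MAGEB2 and CTAG2, from other families, also stood apart higher. MAGEB2 was at 5.86 and 5.74 in SK-MES-1 and at 0.42 to 1.99 elsewhere, at least 16.9-fold higher (adjusted p = 0.0423). It too passed the filter through SK-MES-1 alone, with no other array above background, so its p-value adds no support. CTAG2, a close relative of the NY-ESO-1 antigen, was at 11.56 and 11.57, against 4.56 in MDA-MB-231, 4.43 and 3.82 in PANC1, 3.63 in SW1990 and 3.62 and 3.56 in PC3 (difference 7.58 ± 0.52, adjusted p = 0.01468), and it was well above background on all 6 other arrays. CTAG1A, whose sequence is that of NY-ESO-1, was at 13.07 and 13.13, with MDA-MB-231 next at 4.42 and PANC1 at 3.34 and 3.16 (difference 11.09 ± 1.95, adjusted p = 0.151). A probe cannot separate CTAG1A from its copy CTAG1B. PRAME was lowest in SK-MES-1, at 4.02 and 4.19 against 7.87 and 7.89 in PANC1 and 4.32 in MDA-MB-231. MAGEC1 and PAGE2 were above background only in MDA-MB-231, at 6.67 and 6.99. MAGEA1, MAGEA8, MAGEB2 and CTAG2 were the only listed genes of any list that limma called, and all 4 calls were lost with the trend and robust fit, at adjusted p-values of 0.0835, 0.0554, 0.116 and 0.0503. With the line as a random block MAGEA1 and MAGEB2 were not called (adjusted p = 0.262 and 0.589). Leaving out 1 array was enough for MAGEB2 (adjusted p = 0.0965 without PC3 mock replicate 2 and 0.0553 without PANC1 mock replicate 2) and for MAGEA1 (0.0536 without PANC1 mock replicate 1).

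**Figure D3:**
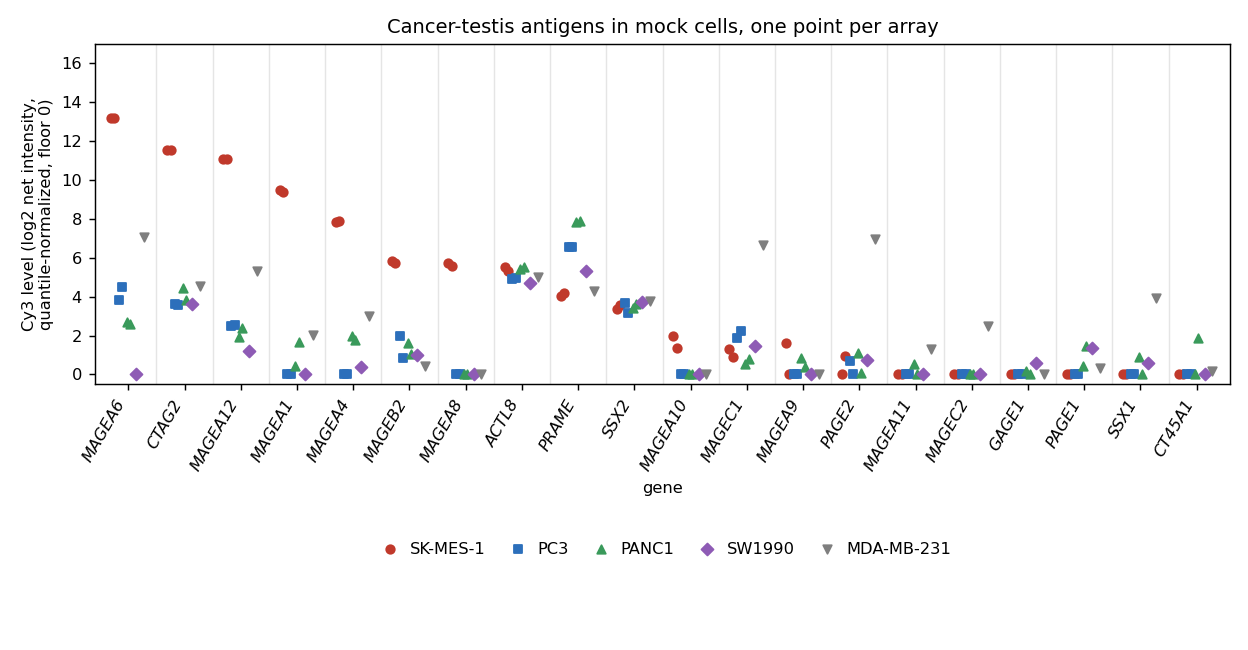
Levels of the 20 cancer-testis antigens found on the array, ordered by their SK-MES-1 mean, with 1 point per array and the Cy3 level on the log2 scale on the y axis. The first 7 genes, from MAGEA6 to MAGEA8, lie far above the other arrays in SK-MES-1, while MAGEC1 and PAGE2 are highest in MDA-MB-231.

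Promoters of these genes are shown because CpG pairs, where DNA methylation falls, are part of how the family is known to be silenced. Methylation was not measured here. The 10 windows of the 5 antigens standing apart that had any (MAGEA4, MAGEA6, MAGEA8, MAGEA12 and MAGEB2) held 9 to 21 CpG pairs in their 300 bases, with a median of 14, which is also the median over all 35116 windows. The window of MAGEA6 (minus strand, chrX:152769640-152769939, RefSeq, GRCh38.p14) held 19 and that of MAGEB2 (plus strand, chrX:30215313-30215612) 21. Each is given 5′ to 3′ along its gene with the CpG pairs in capitals.
MAGEA6: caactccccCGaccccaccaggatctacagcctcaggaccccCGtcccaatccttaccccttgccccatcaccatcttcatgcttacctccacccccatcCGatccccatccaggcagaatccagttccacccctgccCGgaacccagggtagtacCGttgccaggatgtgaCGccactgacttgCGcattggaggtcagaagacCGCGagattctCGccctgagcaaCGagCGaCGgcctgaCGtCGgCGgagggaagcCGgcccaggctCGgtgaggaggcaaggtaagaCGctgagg
MAGEB2: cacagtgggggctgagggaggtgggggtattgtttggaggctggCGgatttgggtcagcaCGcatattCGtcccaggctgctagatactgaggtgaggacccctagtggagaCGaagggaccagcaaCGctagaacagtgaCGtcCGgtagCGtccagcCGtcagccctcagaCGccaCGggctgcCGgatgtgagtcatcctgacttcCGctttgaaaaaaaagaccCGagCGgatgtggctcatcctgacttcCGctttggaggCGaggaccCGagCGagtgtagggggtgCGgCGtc

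Of 12 genes of the EGF receptor family and its ligands, 2 ligands stood apart higher and 1 lower, against 3.69% and 1.94% of all names, and no receptor stood apart. EGFR, the epidermal growth factor receptor, was at 8.11 and 8.07 in SK-MES-1 and at 7.41 to 8.30 elsewhere (difference 0.13 ± 0.47). ERBB2 and ERBB3 also lay within the range of the other lines. EREG, which encodes the EGFR ligand epiregulin, was at 10.74 and 10.85 in SK-MES-1, 7.95 in SW1990, 5.37 in MDA-MB-231, 3.54 and 3.15 in PANC1 and 0.65 and 1.56 in PC3 (difference 6.35 ± 2.60, adjusted p = 0.590). BTC, the ligand betacellulin, was at 7.12 and 7.23 against 0.17 to 5.45 elsewhere (difference 3.77 ± 1.74, adjusted p = 0.649). HBEGF, a further ligand, stood apart lower, at 4.62 and 4.48 against 5.60 to 7.93 (difference -2.07 ± 0.97, adjusted p = 0.652). Of 16 other receptor tyrosine kinases, EPHA2 alone stood apart, at 7.47 and 7.41 against 8.61 to 9.15 (difference -1.46 ± 0.38, adjusted p = 0.358). Of 14 Notch pathway genes, 2 (14.3%) stood apart higher, against 3.69% of all names. The receptor gene NOTCH3 was at 8.79 and 8.96 against 2.84 to 6.54 elsewhere (difference 3.72 ± 1.54, adjusted p = 0.595). LFNG, a glycosyltransferase that modifies Notch receptors, was at 9.17 on both arrays against 5.62 to 7.95 (difference 1.90 ± 1.004, adjusted p = 0.690), but its second probe gave a difference of -0.21.

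The 14 listed genes of the 3q gain, a chromosome arm often amplified in lung squamous carcinoma, did not stand apart, although SOX2 and TP63, which lie on the same arm and are described above, did. All 14 passed the filter, their median difference was -0.14, and levels such as those of PIK3CA, at 6.22 and 6.38 against line means of 6.27 to 6.84, overlapped those of the other lines. None of 12 tumour suppressor genes stood apart either.

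Few markers of other tissues stood apart in SK-MES-1, and many were above background on neither of its arrays, from 5 of 11 prostate markers to 7 of 9 neuroendocrine markers. Of all 43317 names, 22075 were also above background on neither array, so such a count alone does not mark a list. NKX2-1, the lineage factor of lung adenocarcinoma, was above background on none of the 8 arrays, and SFTPA1, SFTPB and SFTPD on neither SK-MES-1 array. None of 11 prostate, 9 breast or 12 pancreatic ductal markers stood apart higher. S100P, listed with the pancreatic ductal genes, stood apart lower, at 4.44 and 4.29 against 7.26 to 12.44 (difference -4.51 ± 2.15, adjusted p = 0.659). Among 15 lung adenocarcinoma and airway markers, FOXJ1, the regulator of motile cilia, was at 5.31 and 5.28 against 4.05 in SW1990 and 1.79 or less elsewhere (difference 3.82 ± 1.62, adjusted p = 0.607). MUC5AC, a secreted airway mucin, was at 9.10 and 9.13 against 7.27 in SW1990 and 3.34 to 4.34 elsewhere (difference 4.46 ± 1.62, adjusted p = 0.531). Both stood apart. Of 9 neuroendocrine markers only NCAM1 did, at 4.53 and 4.47 and above background in no other line, at least 7.26-fold higher (adjusted p = 0.360), while INSM1 and SYP were above background on neither SK-MES-1 array. Of 12 blood, endothelial and fibroblast markers, 11 were on the array under their names and COL1A1 alone stood apart, at 9.90 and 9.87 against 4.34 to 7.61 (difference 4.27 ± 1.34, adjusted p = 0.462). COL1A2, COL3A1 and DCN, which accompany it in fibroblasts, were above background on neither SK-MES-1 array.

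The 15 named genes that lay farthest above the nearest other line included 3 cancer-testis antigens described above, MAGEA1, CTAG2 and CTAG1A. The widest gap was that of NR0B1 (probe at chrX:30322639-30322698, hg19), a nuclear receptor that represses other nuclear receptors. It was at 11.37 and 11.45 in SK-MES-1, 0.63 in MDA-MB-231, 0.29 in SW1990, 0.14 and 0.64 in PANC1 and 0.00 and 0.01 in PC3, at least 932-fold higher, and a second probe gave a difference of 5.27. UCHL1 (chr4:41270340-41270399), a ubiquitin hydrolase abundant in neurons, was at 15.17 and 15.13 against 4.90 and 4.75 in PANC1, 1.16 and 0.70 in PC3 and 0.00 in SW1990 and MDA-MB-231 (difference 13.71 ± 2.06, adjusted p = 0.100, and 0.0149 with the line as a random block). GAP43 (chr3:115439985-115440044), a protein of growing axons, was at 7.12 and 7.17 and at 0.36 or less elsewhere, at least 48.4-fold higher. NPTX2 (chr7:98258890-98258949), a secreted synaptic pentraxin, was at 7.38 and 7.31 and at 0.62 or less elsewhere, at least 55.7-fold higher. TSPAN7, a tetraspanin also found in neurons, was at 7.72 and 7.91 and at 0.53 or less elsewhere, at least 77.2-fold higher.

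The other genes of that group were also at or near the floor in most other lines. ELTD1 (current symbol ADGRL4; chr1:79355454-79355513), an adhesion receptor of vascular endothelium, was at 8.80 and 8.81 in SK-MES-1 and at 0.01 or less elsewhere, at least 153-fold higher. BHMT2, which methylates homocysteine, was at 8.75 and 8.57 and at 0.01 or less elsewhere, at least 139-fold higher. HIST1H1A (current symbol H1-1), a linker histone, was at 9.92 and 9.94, with 3.41 on 1 of the PC3 arrays as the highest other value (difference 8.46 ± 0.45). CDH13, an atypical cadherin without a cytoplasmic tail, was at 7.71 and 7.64 and at 0.57 or less elsewhere, at least 69.9-fold higher. PRUNE2 was at 7.79 and 7.67, at least 72.9-fold higher, DMRTA2, a DM-domain transcription factor, at 7.18 and 7.10, at least 48.3-fold higher, and ZNF883 at 7.31 and 7.29, at least 54-fold higher, with no other array above background for any of the 3. Of the 15 genes 13 were called, but they were chosen for their gap and most had every other line at the floor, so that their small p-values follow from the choice. HIST1H1A was not called without PC3 mock replicate 1 (adjusted p = 0.0564), and with the line as a random block HIST1H1A, PRUNE2 and ZNF883 were not (0.762, 0.0794 and 0.0506). Second probes gave smaller differences for CDH13 (3.23), PRUNE2 (4.68) and ZNF883 (2.24).

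The 10 named genes farthest below the other lines were at 2.78 or less in SK-MES-1, most of them at or near the floor. All 10 were well above background on all 6 other arrays. LXN (chr3:158384316-158384375), the carboxypeptidase inhibitor latexin, was at 0.03 and 0.02 in SK-MES-1, 7.66 in SW1990, 9.21 in MDA-MB-231, 10.83 and 10.74 in PC3 and 11.86 and 11.77 in PANC1, at least 530-fold lower in SK-MES-1 (adjusted p = 0.134). PEG10, an imprinted gene derived from a retrotransposon, was at 0.03 and 0.02 against 6.95 to 9.30, at least 176-fold lower (adjusted p = 0.0599). ABCA3, a lipid transporter of lung surfactant cells, was at 0.03 and 0.02 against 6.61 to 8.91, at least 105-fold lower (adjusted p = 0.0597). None of these 3 passed the test. These bounds take in 3 probes that were marked above background on SK-MES-1 array 1 while at the floor, and without such probes the bound for LXN was 381-fold, and bounds fell by up to 1.39 times for the lower genes and 1.06 times for the higher ones. INHBB, the beta-B subunit of activins and inhibins, was at 2.78 and 2.28 against 8.77 to 12.34, with 1 of the SK-MES-1 arrays above background (difference -7.51 ± 1.48, adjusted p = 0.202).

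Of the 10, which were also chosen for their gap, 4 were called lower by limma. All 4 passed the filter through the other lines alone, so their p-values add no support to the levels. GTDC1 (current symbol QTMAN; chr2:144703628-144703687), which encodes a glycosyltransferase, was at 0.03 and 0.02 in SK-MES-1 and at 6.55 to 7.13 on the other arrays, at least 67.7-fold lower (adjusted p = 0.009914). KHDRBS3, an RNA-binding splicing regulator, was at 1.68 and 0.83 against 7.61 to 8.64, at least 85.4-fold lower (adjusted p = 0.0212). OSGEPL1, a mitochondrial tRNA-modifying enzyme, was at 0.03 and 0.02 against 6.10 to 7.003, at least 57.3-fold lower (adjusted p = 0.0162). APOBEC3B (chr22:39387538-39387597), a cytidine deaminase of single-stranded DNA, was at 0.03 and 1.54 against 6.67 to 7.64, at least 79.7-fold lower (adjusted p = 0.0233). For each of these 4 genes the 6 other arrays were close to each other. None of the 4 was called with normexp (adjusted p = 0.074, 0.1748, 0.183 and 0.2315 in that order), where the GTDC1 difference was -1.68. With a floor of 16, KHDRBS3, OSGEPL1 and APOBEC3B were not called (adjusted p = 0.0755, 0.1165 and 0.1315). GATA2-AS1 and ZNF256 were at 0.03 and 0.02 in SK-MES-1 and more widely spread in the other lines, at least 59.6-fold and 42.3-fold lower, with adjusted p-values of 0.284 and 0.236. With the line as a random block, LXN, ABCA3 and PEG10 were called (adjusted p = 0.01496, 0.00324 and 0.00428) and KHDRBS3 and APOBEC3B were not (0.171 and 0.510). That fit takes arrays of a line as separate values, so the gained calls are no added support. The 3 other genes called lower were CCDC122, SIMC1 and lnc-MBL2-5, named here after their values were seen.

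**Figure D4:**
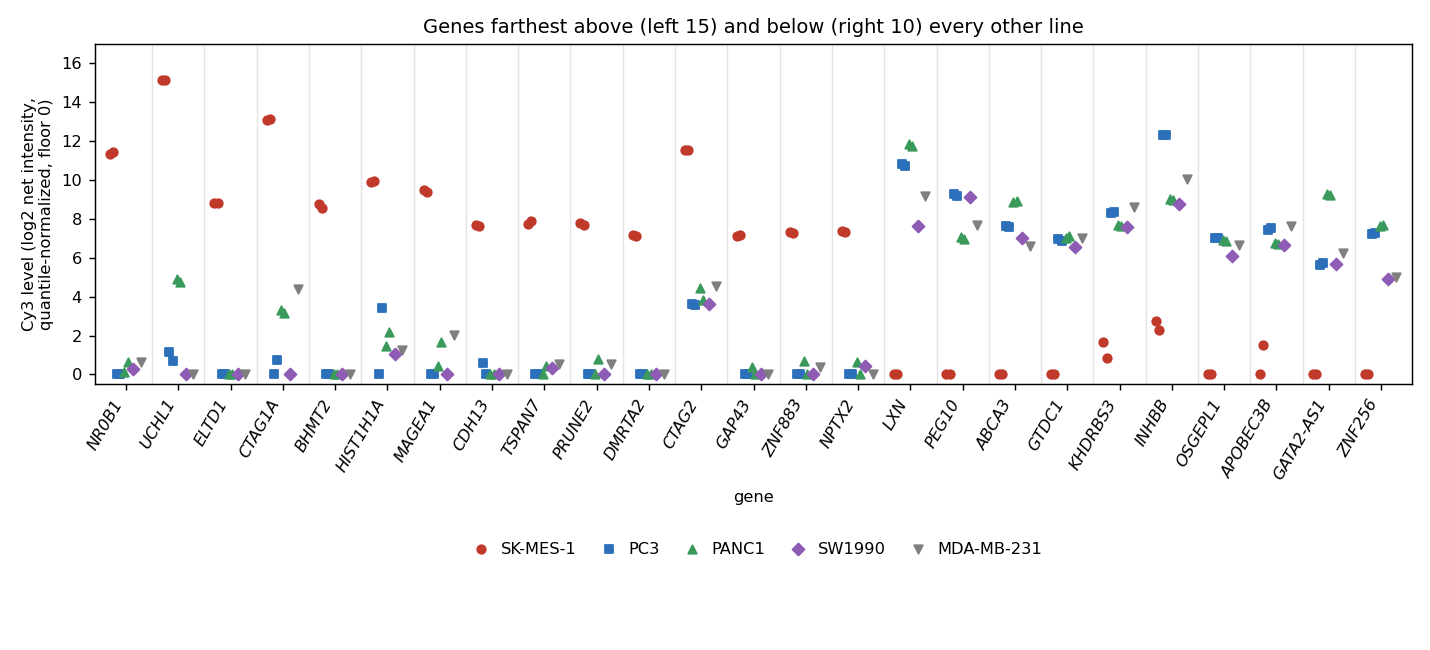
Levels of the 25 named genes farthest above (15 on the left) and below (10 on the right) every other line, with 1 point per array and the Cy3 level on the log2 scale on the y axis. The 15 genes on the left lie between 7.10 and 15.17 in SK-MES-1 and mostly at or near 0 elsewhere, and the 10 on the right lie at 2.78 or less in SK-MES-1 and at 4.93 or more elsewhere.

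The transfected cells in the Cy5 channel gave a second RNA of each line, although on the same arrays and after different treatments, so the values of the same probes were set side by side without a test between channels. All 25 named genes and the 33 further list members that stood apart or were called had the same direction in both channels. They were chosen for their Cy3 values, and Cy5 was read from the same probes, so the shared direction adds little support. The Cy5 difference minus the Cy3 difference had a median of 0.08 over these 58 genes and ranged from -1.79 for NOTCH3, which was 1.93 in Cy5 against 3.72 in Cy3, to 1.38 for TP63, which was 4.203 in Cy5 against 2.83 in Cy3. TP63 was at 4.49 and 4.48 on the SK-MES-1 arrays in Cy5. SOX2 was at 5.47 and 5.41 in Cy5, but its gap to the nearest line was 0.61. Of the 35 list members standing apart in Cy3, SOX2 and 5 others had a gap under 1 in Cy5, with 0.61 for DSG2, 0.84 for ITGA3, 0.94 for HBEGF, 0.69 for EPHA2 and 0.065 for NOTCH3. For NR0B1 the Cy5 difference was 11.69, for AKR1C1 8.70, for SLC7A11 4.91 and for MAGEA6 10.64. With the filter and the brightest probe of each gene taken anew from Cy5, the differences of NR0B1 and MAGEA6 were 3.59 and 6.37. That fit called 160 genes higher and 8 lower, of which 99 and 4 were also called in Cy3. TP63 and MAGEA6 were then called (adjusted p = 0.0314 and 0.040), while NR0B1, MAGEA1, MAGEA8 and MAGEB2 were not (0.0567, 0.0843, 0.115 and 0.0538). In Cy3, TP63 had passed the filter through SK-MES-1 alone, with no other array above background. Among the genes farthest below, PEG10 and ABCA3 were called (0.0474 and 0.0222), and KHDRBS3 and APOBEC3B were not (0.0768 and 0.0691). All these genes were followed because of their Cy3 values on the same arrays, so the calls gained in Cy5 add no support.

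**Figure D5:**
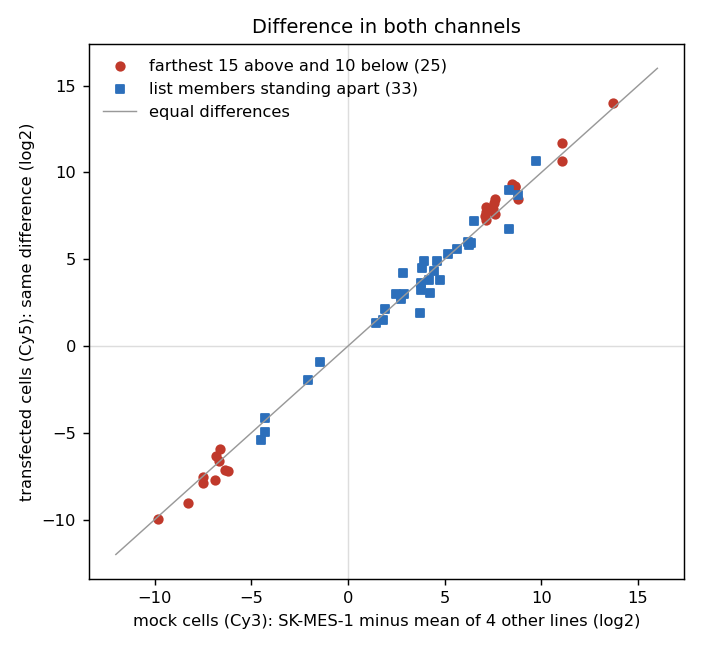
Difference between SK-MES-1 and the mean of the 4 other lines in mock cells (Cy3, x axis) and in transfected cells (Cy5, y axis), on the log2 scale, for the 25 named genes farthest above or below the other lines and 33 list members that stood apart or were called. All 58 points lie in the quadrants of equal sign, close to the line of equal differences.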

How the data were processed

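Mock cells of 5 human cancer lines were measured on 8 Agilent 2-colour arrays, all on 1 slide. Intensity values were deposited as scanner output by the authors (Feature Extraction 11.5.1.1, probes annotated on hg19), with mock RNA in Cy3 and transfected RNA in Cy5 and no dye swap. The deposited table of log ratios between the dyes says nothing of mock levels and was not used. The array number limits the precision, and 41.4% to 46.4% of probes were well above background.

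The median background was subtracted from the mean Cy3 signal, the result floored at 1, put on the log2 scale and quantile-normalized over the 8 arrays (limma 3.58.1, R 4.3.3). Control and flagged spots were excluded, and replicate spots of the same probe were averaged. Probes well above background on both SK-MES-1 arrays or on all 6 others were kept, 26005 of 58201, and a gene was read from its brightest kept probe. Arrays of a line were averaged, and limma was fitted to the 5 line means with 3 residual degrees of freedom. Where one side was above background on no array, folds are bounds between SK-MES-1 and the mean of the 4 other lines. For these bounds, values of the dim side were raised to the lowest signal well above background on their array. The limit of a single probe can be higher than that signal. Of the 19980 gene names, 14911 matched a current RefSeq symbol or synonym.

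The text names the 15 genes farthest above and the 10 farthest below the nearest line, and members of 20 lists with 287 entries. Some list members enter the counts but are not reported here by name. Members, lists and rules were chosen with earlier results of these data known. On simulated data of 19980 genes, 0 of 66 genes changed by 2 on the log2 scale were called, 24 of 67 changed by 4 and 36 of 67 changed by 8, with 1 unchanged gene called.

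Alternatives changed the background correction, floor, normalization, filter, probe rule, variance model, gap and channel, used the line as a random block, or left out each array or line. A filter on all arrays of at least 1 line, and bounds without floored probes, were added after seeing the data.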

Additional observations from a re-analysis of the deposited data

How the results depend on the processing

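The direction held for all 58 genes followed, in 1179 alternative values, of which 1024 kept their side of the threshold, 128 lost a call and 27 gained one. These genes were chosen because they lay beyond the other lines or were called in the main setting. Their held direction follows largely from that choice and adds little support. Counts moved more than directions. The main counts were 169 genes called higher, 7 called lower, 1266 standing apart higher and 496 lower, with 7 NRF2 targets, 7 cancer-testis antigens and 2 squamous transcription factors standing apart higher. No gene was called, in either direction, without the PC3, PANC1, SW1990 or MDA-MB-231 line (0 and 0, with 1728, 1989, 1805 and 1601 genes at an unadjusted p under 0.05), with the trend and robust fit (0 and 0, with 1736) or with a filter on all 8 arrays (0 and 0, with 1120, after fewer genes were tested). With the line as a random block (correlation 0.972) 109 were called higher and 19 lower, 85.2% higher against 96% in the main fit. The processed signal gave 268 and 11, a floor of 16 gave 579 and 30, normexp gave 4 lower, and the filter added after seeing the data gave 106 higher. Standing apart higher and lower were 448 and 98 with normexp, 806 and 311 with a floor of 16, 2195 and 1533 with a gap of 0.5, and 585 and 102 with a gap of 2. Without a filter 841 stood apart lower, with the filter on all 8 arrays 346 stood apart higher, and without the PC3, PANC1 or SW1990 line 751, 836 and 762 stood apart lower. NRF2 targets standing apart numbered 11 with a gap of 0.5, 12 without the PANC1 line and 4 with the filter on all 8 arrays, which left 2 cancer-testis antigens. Squamous transcription factors standing apart numbered 0 with normexp, a floor of 16, a gap of 2 or the filter on all 8 arrays, and 1 with the 75th percentile or with Cy5. Other causes were not tested. Leaving out 1 array at a time gave 146 to 219 called higher, 7 to 9 lower, 1250 to 1438 standing apart higher and 489 to 525 lower, with NRF2 targets at 7, cancer-testis antigens at 7 and squamous transcription factors at 2 throughout. The median of all genes moved by -0.14 without a filter, -0.12 with the filter on all 8 arrays and -0.11 with the added filter. No paired analysis was possible because the labels number no replicates. With 1 line against 4, SK-MES-1 has no spread of its own at the level of lines, medium cannot be told apart from line, and genes near background have only bounds.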
